A study of Danio rerio with 6 samples.

Results

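The genes described here encode the protein subunits of the mitochondrial ribosome of the zebrafish. They were taken as the rows with a zebrafish Ensembl identifier whose symbol starts with mrps or mrpl followed by a digit, which gave 74 of 32520 Ensembl genes. The rule used no measured value. Polyadenylated RNA was sequenced from cells sorted for the Tg(mpx:eGFP) reporter, in which the mpx promoter drives green fluorescent protein and which the labels call neutrophils. Of the 6 libraries, 3 came from embryos given a morpholino against znf711, labelled as znf711 knockdown, and 3 were controls, labelled as wild type, all at day 2 and all carrying the reporter. A morpholino is an antisense oligonucleotide that keeps its target RNA from being translated or spliced. The series' own text describes larvae of a znf711 mutant at 48 hours post-fertilisation instead, and groups were taken from the labels of the samples. Neither the treatment of the control embryos nor the number of larvae per library is stated in the sources used here. The study's question was what Znf711, a zinc finger protein that works with the histone demethylase Phf8, does for gene expression in these cells.

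Mitochondria carry their own small genome, which in vertebrates encodes core subunits of the respiratory chain and the ATP synthase together with the RNAs needed to translate them. The mitochondrial ribosome that does this work descends from a bacterial ribosome. Its protein subunits are encoded in the nucleus, made in the cytosol and imported. Many are related to bacterial ribosomal proteins, and others were added during the evolution of mitochondria. In people, inherited defects in MRPS2, MRPS7, MRPS14, MRPS16, MRPS22, MRPS34, MRPL3, MRPL12, MRPL24 and MRPL44 are among the known causes of combined respiratory chain deficiency. Neutrophils are known to make most of their ATP by glycolysis and to hold few mitochondria, and their precursors hold more.

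No mitochondrial ribosomal protein gene differed between the morpholino and control libraries after correction for the number of genes tested. In the summed level of these genes, the morpholino replicates differed from each other more than the groups did, and in opposite directions. Morpholino replicate 1 had the highest summed level of these genes and morpholino replicate 3 the lowest, with all 3 controls between them. Morpholino replicate 1 also lacked reads of 12 genes that every other library held. Among genes with at least 50 counts in each other library, 14% of this set were at 0 there, beside 15.7% of Ensembl genes. At a minimum of 100 counts the shares were 18.4% and 9.27%. Of the 65 tested genes, 22 were over 2-fold lower there than the median of the other 5 libraries and 12 over 2-fold higher. Together these were 52.3% of the tested genes, beside 74.9% of all rows. The median level of all rows was lower than that of these genes, so these shares are not at a like level.

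The libraries differed in depth and in the levels of cell type markers. Total counts were 1629804 in morpholino replicate 1, 9550796 and 12093109 in the other morpholino libraries, and 7181804 to 9311439 in the controls. Counts were found in 8041 Ensembl genes in morpholino replicate 1 and in 13434 to 16074 in the other 5 libraries. Of the neutrophil markers, mpx was counted in every library, at 549 CPM (counts relative to the library total, adjusted by TMM factors) in morpholino replicate 1 and 511 CPM in control replicate 1, against 2655 to 4979 CPM in the other 4. The lysozyme gene lyz, another neutrophil marker, had between 0 and 8 counts in every library. The summed neutrophil markers reached 3308, 11495 and 24797 CPM of all counts in morpholino replicates 1 to 3 and 2520, 11589 and 13491 CPM in control replicates 1 to 3. Summed red cell genes followed another order, at 19909, 10760 and 2350 CPM in the morpholino libraries and 15515, 4844 and 3246 CPM in the controls. Summed muscle genes had 226, 106 and 91 CPM in the morpholino libraries and 92.7, 11.3 and 30.5 CPM in the controls. With TMM scaling the muscle sums did not overlap between the groups. They were then 194, 118 and 82.9 CPM in the morpholino libraries and 77.3, 12.7 and 37.3 CPM in the controls. Summed neural genes had 2586, 1545 and 3252 CPM in the morpholino libraries and 2779, 1279.9 and 1695 CPM in the controls. In control replicate 1 the neural sum was above the neutrophil sum, but marcksl1b alone held 1583 CPM of that neural sum. The macrophage, epidermis and endothelium sums overlapped between the groups. Summed connective tissue genes had 545, 550.3 and 553 CPM in the morpholino libraries and 1239.5, 898 and 696 CPM in the controls, without overlap. The target gene znf711 had 1, 120 and 182 counts in the morpholino libraries and 348, 134 and 60 in the controls, so its raw counts overlapped between the groups. In bulk samples, fewer cells of a type and less RNA per cell cannot be told apart.

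By symbol, 28 of the genes were mrps genes and 46 were mrpl genes. By the place of the protein in the ribosome, 25 belong to the small subunit, which decodes the messenger RNA, and 48 to the large subunit, which joins amino acids. The large subunit holds mrps18a and mrps30, whose older names point to the small one. The remaining gene, mrps36, carries the name kgd4 in the reference gene table. That protein is now known as a part of the oxoglutarate dehydrogenase complex, so mrps36 was counted among the 74 but in neither subunit. Of the 73 subunit genes, 46 are related to a bacterial ribosomal protein and 27 are specific to mitochondria. Genes spelled in capitals fell just outside the rule. MRPS12, the mitochondrial counterpart of a decoding-centre protein, had 2, 182 and 119 counts in the morpholino libraries and 97, 200 and 71 in the controls, and MRPL49 had no count in any library.

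Counts were present in all 6 libraries for 55 of the 74 genes, and 65 passed the filter on low counts and were tested. The 9 genes not tested were mrpl18, mrpl28, mrpl45, mrpl47, mrps16, mrps22, mrps26, mrps28 and mrps36. Of these, mrpl47, mrps22, mrps26, mrps28 and mrps36 had no count in any library. Where a library has 0 counts, up to 3 remain possible, or between 0.248 and 1.84 CPM across the libraries, from counting error only. The small-subunit gene mrps16 was read in control replicate 2 alone, with 4 counts. The gene mrpl45 of the membrane-facing large-subunit protein, which anchors the ribosome at the inner membrane in people, had 1, 7 and 5 counts in the morpholino libraries and 87, 47 and 1 in the controls. Control replicate 3 lay at the level of the morpholino libraries, so the groups overlapped.

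The empty rows did not all lie among silent neighbours. Within 30 kb of mrps36 stood 4 other genes with 2127 counts in all, and within 30 kb of mrps28 stood 5 with 822 counts. By contrast, the 2 neighbours of mrps22 had no count, those of mrpl47 had 25 counts in all, and those of mrps26 had 7. For mrps26, mrps28 and mrps36, the files also hold an unnamed gene model on an alternate scaffold with a matching length and place. The model beside mrps36 had 2, 26 and 84 counts in the morpholino libraries and 10, 102 and 46 in the controls. The one beside mrps28 had 1, 17 and 3 counts in the morpholino libraries and 1, 10 and 16 in the controls, and the one beside mrps26 had 4, 2 and 24 in the morpholino libraries and 0, 0 and 1 in the controls. Another such model, beside mrpl23, had 99, 88 and 109 counts in the morpholino libraries and 10, 37 and 52 in the controls. The mrpl23 row itself had 13, 277 and 125 counts in the morpholino libraries and 154, 232 and 140 in the controls. A model of this kind also lay beside mrpl45, with 0 counts in every library. Reads of a gene with 2 models may be divided between them or left uncounted. The levels of mrpl23, mrpl45, mrps26, mrps28 and mrps36 are therefore uncertain, and those models were not added to the genes here.

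**Figure D1:**
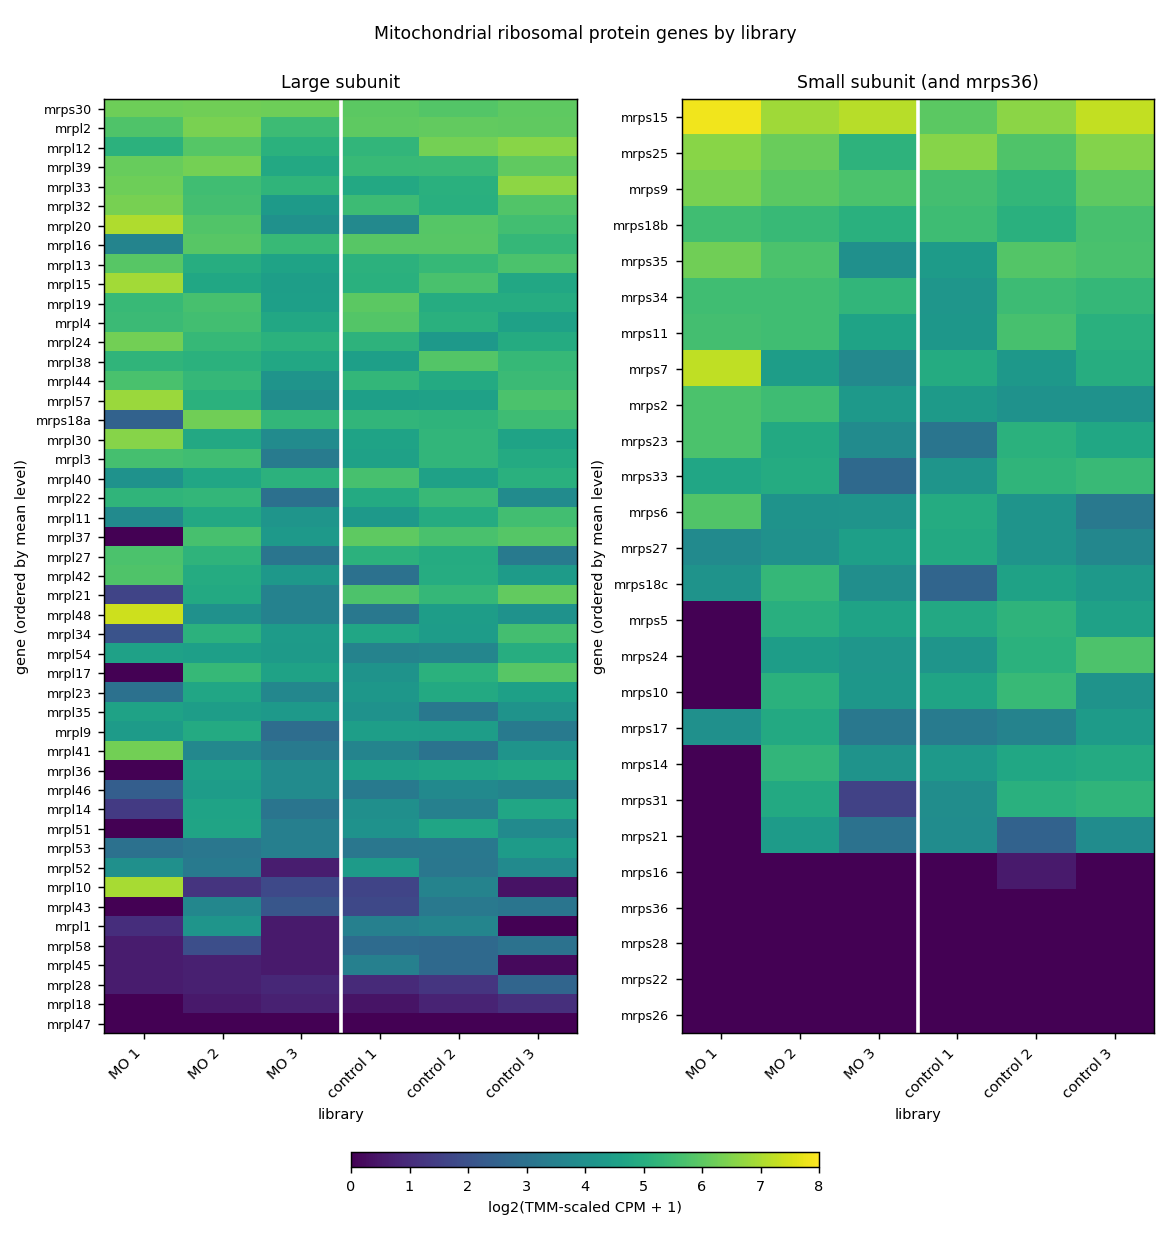
Colour shows log2(TMM-scaled CPM + 1) of each of the 74 genes (rows, ordered by mean level within each panel) in the 3 znf711 morpholino (MO) and 3 control libraries (columns, separated by a white line). The column of MO 1 holds both the brightest cells and dark cells in rows that are filled in the other 5 libraries, and 5 rows are at 0 throughout.

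Levels between genes were compared per length, as counts divided by the listed gene length and scaled to a fixed total, as for CPM. The 65 tested genes had mean length-scaled levels between 10.1 and 172, with a median of 47.5 and quartiles of 22.8 and 75.9. All tested Ensembl genes had a median of 9.16 and quartiles of 3.45 and 26, so most of these genes lay in the upper part of the range. The highest median over the 6 libraries was that of mrpl20, which encodes a protein that helps the large ribosomal RNA to fold in bacteria, at 131 and with a range of 53 to 475. Next came mrpl33 at 118 (87.5 to 233), mrpl13 at 114 (82.2 to 205) and mrps30 at 114 (68.5 to 139.5). The ranges of these 4 overlapped, so their order is not distinguished by the spread between libraries. In the small subunit, mrps34 had a median of 84 (46.3 to 106) and mrps18b of 71.5 (58.8 to 109).

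The lowest median among tested genes belonged to mrpl10, at 3.46 with a range of 0.278 to 173. Its protein forms the base of the flexible stalk that recruits translation factors. Above it came mrpl43 at 9.29, mrpl51 at 11.7 and mrpl58 at 11.9. Among the genes not tested, mrpl28 had a median of 1.87 and mrpl18 of 0.738. The listed length of a row is the authors' value, and a length that is too long or too short moves its length-scaled level.

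**Figure D2:**
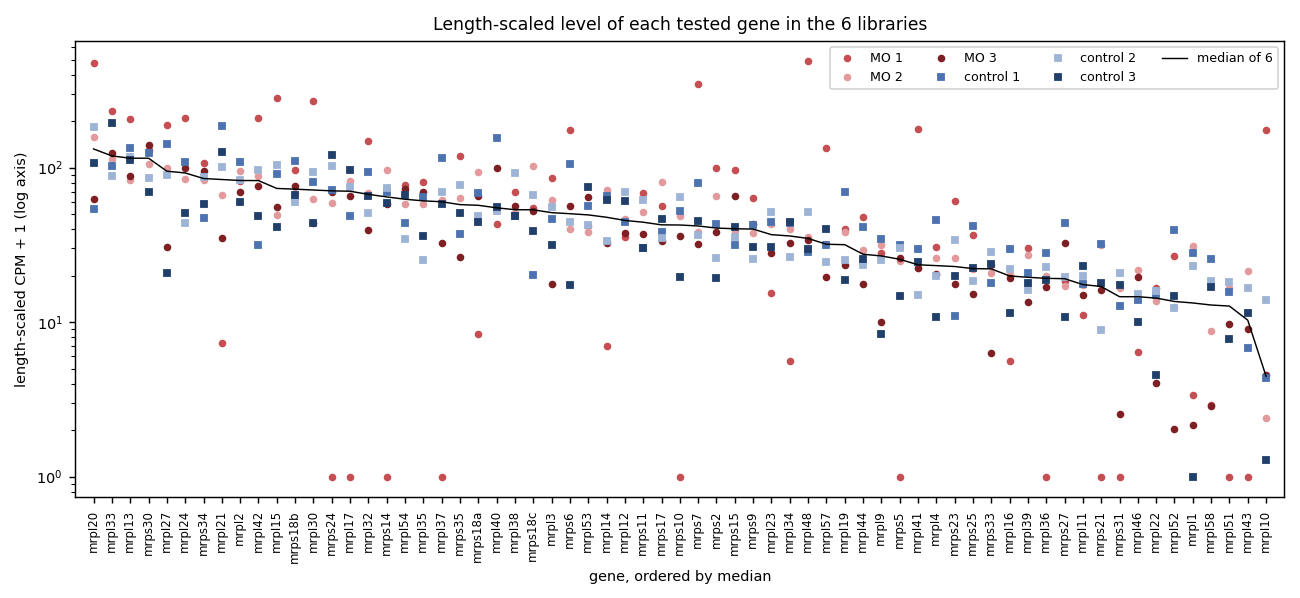
Length-scaled CPM + 1 (log axis) of the 65 tested genes in each library, with red circles for the znf711 morpholino (MO) libraries, blue squares for the controls and a line at the median of 6. MO 1 gives most of the extreme points in both directions, including 11 genes at 0.

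Added together, the 74 genes took 3334, 2116 and 1503 CPM of all counts in morpholino replicates 1 to 3 and 2162, 1837 and 1916 CPM in control replicates 1 to 3. The means were 2317 ± 932 CPM in the morpholino group and 1972 ± 169.6 CPM in the controls (SD, n = 3 each), a log2 ratio of 0.23. Without morpholino replicate 1 the log2 ratio was -0.12. The control libraries lay close together and inside the range of the morpholino libraries. Small-subunit genes summed to 1163, 743 and 587 CPM in the morpholino libraries and 676, 639.9 and 674 CPM in the controls. Large-subunit genes summed to 2171, 1373 and 916 CPM in the morpholino libraries and 1486, 1197 and 1241 CPM in the controls. In both subunits the 3 controls fell within the morpholino range.

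The balance of the subunits varied less than the sums. Small-subunit genes held 34.9%, 35.1% and 39.1% of the counts of all these genes in the morpholino libraries and 31.3%, 34.8% and 35.2% in the controls. Morpholino replicate 3 had the highest share and control replicate 1 the lowest, and the other 4 libraries lay between 34.8% and 35.2%. Genes related to bacterial ribosomal proteins summed to 2153, 1431 and 1021 CPM in the morpholino libraries and 1439, 1215 and 1256 CPM in the controls, and mitochondria-specific ones to 1181, 685 and 482 CPM in the morpholino libraries and 723, 622 and 660.1 CPM in the controls. Both classes kept the order of the whole set, with morpholino replicate 1 highest and morpholino replicate 3 lowest.

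The cytosolic ribosomal protein genes summed to 102074, 75570 and 43941 CPM in the morpholino libraries and 74740, 86615 and 88346 CPM in the controls. They too were highest in morpholino replicate 1 and lowest in morpholino replicate 3, but among the controls they were lowest in replicate 1, where the mitochondrial set was highest. With TMM scaling the cytosolic sums were 87711, 84149.6 and 40013 CPM in the morpholino libraries and 62310.3, 97415 and 108135 CPM in the controls, with control replicate 3 highest. The mitochondrial set with TMM scaling summed to 2864, 2356 and 1368 CPM in the morpholino libraries and 1802, 2066 and 2345 CPM in the controls. Morpholino replicates 1 and 3 thus kept the ends of the mitochondrial order on both scales, while control replicate 1 was second highest without TMM and second lowest with it. Morpholino replicate 3 also held the highest neutrophil marker sum on both scales. The part of cell content or depth in these differences was not tested.

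**Figure D3:**
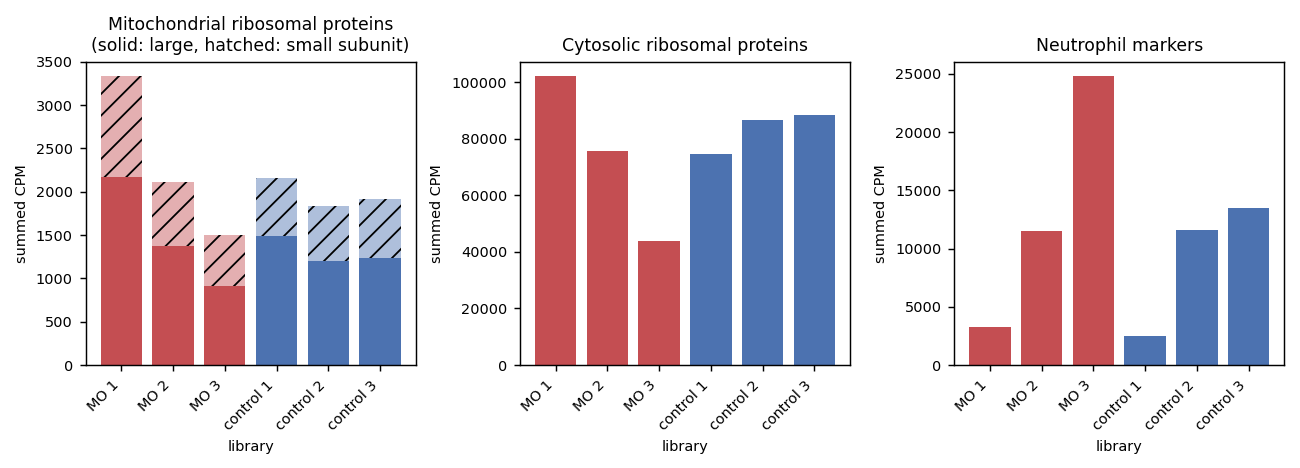
Summed CPM of all counts in each library for the mitochondrial ribosomal protein genes (solid for the large and hatched for the small subunit), the cytosolic ribosomal protein genes and the neutrophil markers, with znf711 morpholino (MO) libraries in red and controls in blue. The mitochondrial set ran from 3334 CPM in MO 1 to 1503 CPM in MO 3, while the controls lay between 1837 and 2162 CPM.

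In the edgeR quasi-likelihood test with Benjamini-Hochberg adjustment over 16637 rows, none of the 65 tested genes passed the threshold of 0.05, and each had an adjusted p of 0.9999. Over all rows the same test called 0, which is 0% of those tested. At an unadjusted p under 0.05, mrpl48 was higher in the morpholino libraries, beside 97 of all rows (0.583%), and mrpl21 was lower, beside 77 of all rows (0.463%). DESeq2 called 140 of 20068 rows (0.698%) and none of the 64 of these genes to which it gave an adjusted p. It gave none to mrpl10 and mrpl48, so it did not judge them. Limma-voom called none of the 65 genes. The common biological coefficient of variation was 1.09, a spread between libraries about as large as the level itself. The p-values measure the spread between samples that the labels call biological replicates.

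Estimated log2 fold changes of morpholino over control libraries were positive for 31 and negative for 34 of the tested genes. Their median was -0.04, with quartiles of -0.59 and 0.41 and extremes of -2.26 for mrpl58 and 3.24 for mrpl10, beside a median of -0.12 over all rows. With RLE scaling the median was at 0 to 2 decimals, and with no scaling beyond the library total it was 0.05. Without morpholino replicate 1, 20 of 67 tested genes were positive and 47 negative, with a median of -0.17 beside -0.03 over all rows. Without morpholino replicate 3 the balance turned, with 40 of 66 positive and a median of 0.18 beside -0.37 over all rows. Without morpholino replicate 2, 21 of 66 were positive with a median of -0.32 beside -0.31 over all rows. With all libraries kept, limma-voom gave 23 positive and 42 negative, with a median of -0.27 beside -0.15 over all rows. Limma-voom with library weights gave 24 positive and 41 negative, with a median of -0.11 beside 0.03. None of these fits called any of the genes. The balance of signs thus varied with the library left out and with the method, and the cause was not tested.

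Among small-subunit genes, 11 estimates were positive and 10 negative with a median of 0.14, and without morpholino replicate 1 the median was -0.04. Among large-subunit genes, 20 were positive and 24 negative with a median of -0.04, and without that library 11 of 46 were positive with a median of -0.21. Genes related to bacterial ribosomal proteins split into 20 positive and 21 negative, and mitochondria-specific ones into 11 positive and 13 negative. Whether the subunits or the classes differ was not tested.

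The values of the morpholino and control libraries did not overlap for 5 tested genes. For mrpl35 and mrps30 all morpholino libraries were higher, which held for 348 of all rows (2.09%), and for mrpl21, mrpl37 and mrpl58 all were lower, which held for 890 of all rows (5.35%). Without TMM scaling, the groups of mrpl35 and mrps30 overlapped and mrps34 alone had all morpholino libraries higher, beside 435 of all rows (2.61%). On that scale mrpl36 and mrps24 joined mrpl21, mrpl37 and mrpl58 as genes with all morpholino libraries lower, beside 730 of all rows (4.39%). The low-count gene mrpl28, which was not tested, also had all morpholino libraries lower, with 1, 7 and 9 counts in them and 8, 11 and 32 in the controls. Its lowest control count lay below the highest morpholino count before scaling.

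**Figure D4:**
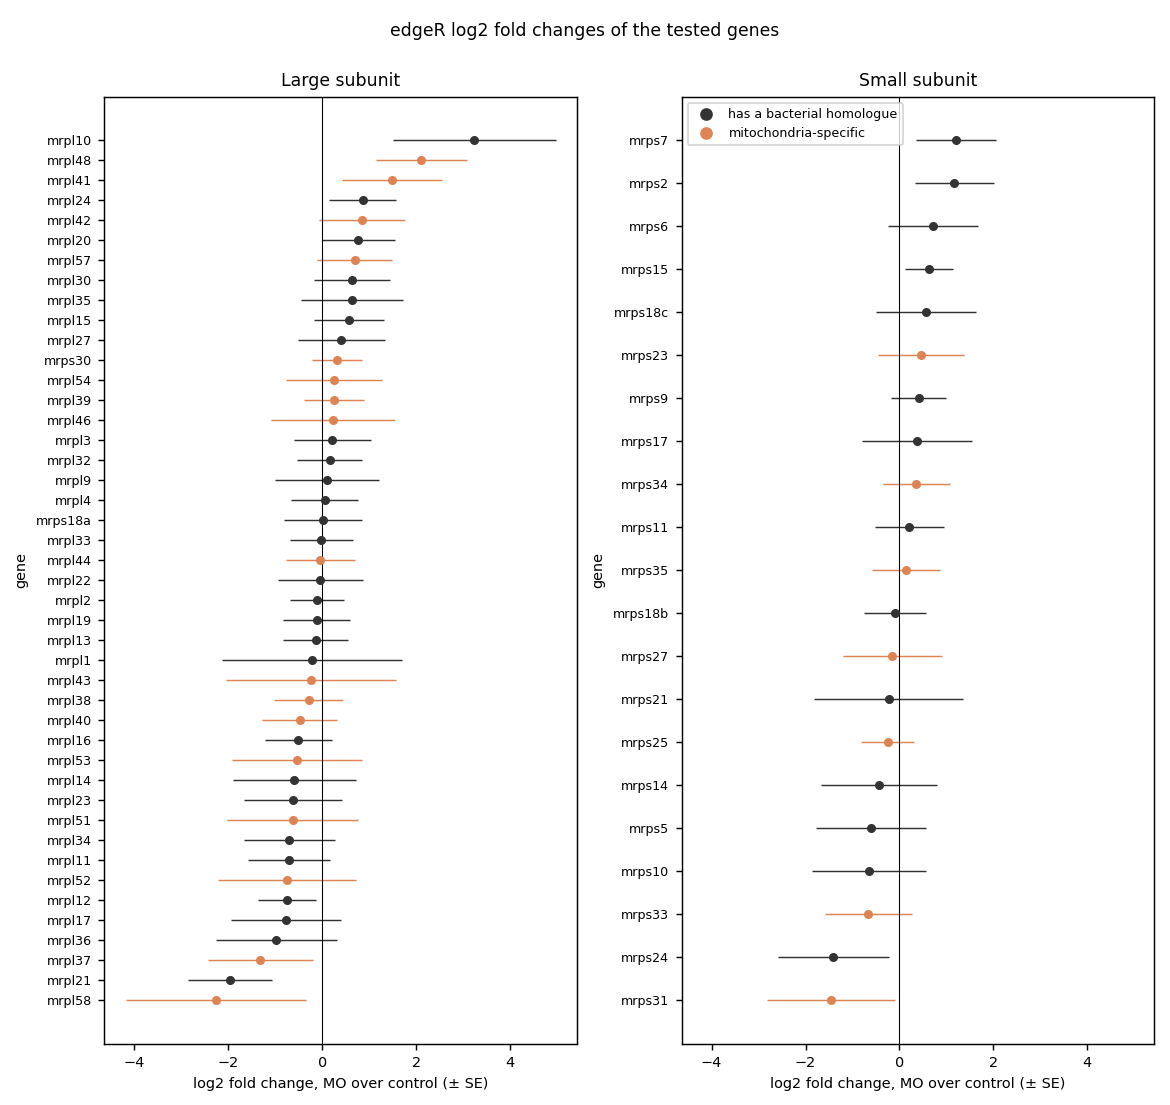
Log2 fold changes of znf711 morpholino (MO) over control libraries from edgeR, with approximate standard errors as bars, for the 44 large-subunit and 21 small-subunit genes tested, coloured by evolutionary class. The estimates spread from -2.26 to 3.24 on both sides of 0, and none passed the threshold after adjustment.

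In the small subunit, mrps15 was the gene with the most counts. Its protein binds the small ribosomal RNA early in assembly in bacteria. The gene (ENSDARG00000109289, minus strand of chromosome 16 in GRCz11, 36095582 to 36118514) had 226, 115 and 141 CPM in the morpholino libraries and 62.7, 96.7 and 153 CPM in the controls. The groups overlapped through control replicate 3, and the log2 fold change was 0.63 ± 0.51 (edgeR, adjusted p = 0.9999). It led the counts of these genes in 5 of the 6 libraries, and mrps25 led in control replicate 1.

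The ribosomal RNA-binding protein of mrps7 nucleates the head of the small subunit in bacteria. Its gene had 150.3, 20.9 and 12.5 CPM in the morpholino libraries and 29.5, 18.2 and 30.9 CPM in the controls. Only morpholino replicate 1 stood above the controls, while morpholino replicate 3 lay below them all. Its log2 fold change of 1.21 ± 0.85 became -0.66 without morpholino replicate 1. For mrps2, whose bacterial relative joins the small subunit late, the levels were 52.7, 44.6 and 18.7 CPM in the morpholino libraries and 19.6, 15.8 and 15.9 CPM in the controls. Here both morpholino replicates 1 and 2 were high, and morpholino replicate 3 lay among the controls. The estimate was 1.17 ± 0.84 and kept its sign under every alternative tried, without passing the test in any.

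The mrps18 family illustrates how paralogs of one bacterial protein spread over both subunits. In the small subunit, mrps18b was measured at 45.3, 41.3 and 33.1 CPM in the morpholino libraries and 45, 32.9 and 49.9 CPM in the controls, one of the steadiest genes of the set (log2 fold change -0.09 ± 0.66). Its paralog mrps18c had 16.3, 39.3 and 14.4 CPM in the morpholino libraries and 5.11, 23.4 and 18.6 CPM in the controls. The large-subunit paralog mrps18a had 4.75, 75.6 and 38.1 CPM in the morpholino libraries and 37.4, 36 and 44.7 CPM in the controls. It was lowest in morpholino replicate 1 and highest in morpholino replicate 2, and its estimate of 0.01 ± 0.83 hides that gap. The groups of all 3 paralogs overlapped.

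Several small-subunit genes were at 0 in morpholino replicate 1 alone. The gene mrps24, whose bacterial relative lies at the mRNA entry site, had 0, 20.7 and 17.6 CPM in the morpholino libraries and 17.1, 33.3 and 53.2 CPM in the controls. For mrps31 the levels were 0, 27.9 and 2 CPM in the morpholino libraries and 14.3, 32.9 and 36.7 CPM in the controls, so morpholino replicate 3 was low as well. In morpholino replicate 1 a count of 0 allows a level of up to 1.58 CPM on the TMM-scaled axis. The estimates were -1.41 ± 1.18 for mrps24 and -1.46 ± 1.36 for mrps31, and in both genes morpholino replicate 2 passed control replicate 1. For mrps24 this holds with TMM scaling, while unscaled levels were 0, 18.6 and 19.4 CPM in the morpholino libraries and 20.5, 29.6 and 43.5 CPM in the controls, with no overlap. Leaving out 1 library moved the estimate of mrps31 to -0.90 without morpholino replicate 1 and to -4.62 without morpholino replicate 2, and that of mrps24 to -0.85 without the one and -1.93 without the other. The other small-subunit genes of this kind were mrps5, mrps10, mrps14 and mrps21, which had 7.15 to 37.8 CPM in the other morpholino libraries and 4.71 to 41.3 CPM in the controls. MRPS5 and MRPS14 are core proteins with bacterial relatives.

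The mitochondria-specific mrps34, which stabilises the small subunit in mice and people, had 45.9, 45.5 and 37.4 CPM in the morpholino libraries and 17.3, 43.4 and 39.4 CPM in the controls. Control replicate 1 was low and the other 5 libraries were alike. Unscaled levels of 53.4, 40.8 and 41 CPM in the morpholino libraries all passed those of 20.7, 38.6 and 32.2 CPM in the controls. The pentatricopeptide repeat protein gene mrps27 had 13.2, 15.6 and 22.1 CPM in the morpholino libraries and 28.1, 16.5 and 11.9 CPM in the controls, with a log2 fold change of -0.15 ± 1.06. The morpholino range lay inside that of the controls.

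In the large subunit, the stalk genes showed how far 1 library could move an estimate. The stalk-base gene mrpl10 (ENSDARG00000045091, chromosome 12, 28796622 to 28799642, minus strand) had 236, 14 and 25 counts in the morpholino libraries and 18, 91 and 2 in the controls. That is 124, 1.29 and 2.38 CPM in the morpholino libraries against 2.09, 11 and 0.321 CPM in the controls. Morpholino replicate 1 alone was high, in the shallowest library, and the other 5 libraries were low and overlapped. The log2 fold change was 3.24 ± 1.73 and became -1.29 without that library. The gene mrpl12 encodes the stalk protein that mrpl10 carries, and human MRPL12 is also reported to bind the mitochondrial RNA polymerase. Its levels were 34.3, 58.1 and 33.6 CPM in the morpholino libraries and 37.3, 79.5 and 95.1 CPM in the controls (log2 fold change -0.75 ± 0.62). The groups overlapped through morpholino replicate 2 and control replicate 1, and the stalk partners thus had opposite signs in the same fit. The stalk-associated mrpl11 had 13.2, 27.6 and 17 CPM in the morpholino libraries and 18.9, 29.4 and 46.6 CPM in the controls.

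The smallest unadjusted p-values belonged to mrpl21 and mrpl48. For mrpl21 (ENSDARG00000003846, chromosome 7, 72577898 to 72585111, plus strand), a protein with a bacterial relative, 4, 304 and 111 counts in the morpholino libraries stood against 464, 325 and 419 in the controls. Scaled, this came to 2.11, 28 and 10.6 CPM in the morpholino libraries and 53.9, 39.3 and 67.2 CPM in the controls. Every morpholino library lay below every control, and the log2 fold change was -1.96 ± 0.89 (edgeR, adjusted p = 0.9999). Without morpholino replicate 2 it was -3.05. The mitochondria-specific mrpl48 (ENSDARG00000035167, chromosome 10, 36684000 to 36691681, minus strand) had 168, 15.4 and 10.6 CPM in the morpholino libraries and 8.24, 20.7 and 15.9 CPM in the controls. Apart from morpholino replicate 1 all libraries were within the same range, and the log2 fold change of 2.11 ± 0.97 became -0.21 without that library.

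Other genes with low estimates were low in morpholino replicate 1, though not there alone. The mitochondria-specific mrpl37 had 0, 49.7 and 18.7 CPM in the morpholino libraries and 63.3, 51.1 and 58.3 CPM in the controls. Morpholino replicate 2 came close to the lowest control, and the log2 fold change was -1.32 ± 1.12. It was -0.76 without morpholino replicate 1 and -2.57 without morpholino replicate 2. The gene mrpl58 encodes a peptidyl-tRNA hydrolase that sits in the large subunit and releases stalled chains in people. It was read 1, 30 and 5 times in the morpholino libraries and 51, 47 and 44 times in the controls, or 0.527, 2.76 and 0.477 CPM in the morpholino libraries and 5.92, 5.68 and 7.05 CPM in the controls. Every morpholino library was lower at this low level, with a log2 fold change of -2.26 ± 1.92. That estimate became -1.94 without morpholino replicate 1 and -3.67 without morpholino replicate 2. The small zinc-binding protein gene mrpl36 had 0, 22.2 and 13.5 CPM in the morpholino libraries and 21.7, 23.8 and 26.1 CPM in the controls, and morpholino replicate 2 overlapped the controls. Unscaled, its levels of 0, 19.9 and 14.9 CPM in the morpholino libraries lay below those of 26, 21.2 and 21.3 CPM in the controls.

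The steadiest large-subunit genes over the 6 libraries were mrps30 and mrpl2. The gene mrpl2, whose bacterial relative lies near the peptidyl transferase centre, had 54.8, 82.5 and 43.3 CPM in the morpholino libraries and 64, 66.1 and 64.6 CPM in the controls. The controls were nearly equal and lay inside the morpholino range (log2 fold change -0.11 ± 0.57). For mrps30 (ENSDARG00000104111, chromosome 5, 52971425 to 53004052, minus strand) the levels were 74.9, 76.6 and 74.7 CPM in the morpholino libraries and 62, 57 and 63.3 CPM in the controls. Its SD of log2(CPM + 1) over the 6 libraries, 0.18, was the lowest of the tested genes, with means of 75.4 ± 1.07 CPM in the morpholino group and 60.8 ± 3.33 CPM in the controls (SD, n = 3 each). Its log2 fold change was 0.31 ± 0.53 in edgeR, whose error draws on the spread of all rows. Without TMM scaling its levels were 87.1, 68.8 and 82 CPM in the morpholino libraries and 74.4, 50.7 and 51.7 CPM in the controls, where control replicate 1 passed morpholino replicate 2. The other large-subunit gene with higher morpholino values, mrpl35, had 23.2, 21.1 and 18.5 CPM in the morpholino libraries and 15.9, 8.21 and 16.4 CPM in the controls (log2 fold change 0.63 ± 1.08). That gene was chosen after its values were seen.

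Among the remaining large-subunit genes linked to disease in people, mrpl3 had 49, 45.4 and 8.96 CPM in the morpholino libraries and 23, 37.7 and 28.7 CPM in the controls, so the morpholino libraries lay on both sides of the controls. The gene mrpl24 had 77, 39.7 and 33.8 CPM in the morpholino libraries and 34.7, 18.7 and 29.5 CPM in the controls, overlapping through control replicate 1 (log2 fold change 0.86 ± 0.71). The ribonuclease III-like mrpl44 had 50.6, 39.3 and 16.8 CPM in the morpholino libraries and 38, 28.6 and 43 CPM in the controls, with the controls inside the morpholino range. The exit-tunnel gene mrpl4 was just as mixed, at 43.2, 46.7 and 26.6 CPM in the morpholino libraries and 56.5, 32.7 and 23.1 CPM in the controls. The abundant mrpl20 had 131, 55.4 and 15.6 CPM in the morpholino libraries and 12.7, 58.8 and 46.5 CPM in the controls, with morpholino replicate 1 alone above the controls. Its log2 fold change of 0.77 ± 0.78 became -0.15 without that library. The length-scaled leaders mrpl33 and mrpl13 overlapped as well, with mrpl33 at 73.8, 45.8 and 36.4 CPM in the morpholino libraries and 27.7, 32.6 and 97.8 CPM in the controls, and mrpl13 at 60.1, 30.8 and 23.8 CPM in the morpholino libraries and 33.9, 40.1 and 52.3 CPM in the controls. The gene mrpl1 was at 0 in control replicate 3 alone, with 1.05, 17 and 0.477 CPM in the morpholino libraries and 10.3, 11.5 and 0 CPM in the controls.

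Against the median of the other 5 libraries, morpholino replicate 1 had 12 of the 65 genes over 2-fold higher and 22 over 2-fold lower. That is 52.3% in all, beside 74.9% of all rows. The median log2 difference was 0.21 for these genes, beside -1.46 over all rows. The genes at 0 there and counted elsewhere were mrpl17, mrpl18, mrpl36, mrpl37, mrpl43, mrpl51, mrps5, mrps10, mrps14, mrps21, mrps24 and mrps31, and 11 of these 12 were tested. Among genes with at least 50 counts in each other library, 8 of 57 mitochondrial ribosomal protein genes (14%) were at 0 in this library, beside 967 of 6148 Ensembl genes (15.7%) and 1 of 73 cytosolic ribosomal protein genes (1.37%). In the other libraries at most 0.911% of Ensembl genes were at 0, and none of these genes. There the minimum of 50 counts was asked of the remaining libraries except morpholino replicate 1. At the upper end, mrps15, mrpl48, mrps7, mrpl20 and mrpl10 together held 27.9% of the counts of the set in morpholino replicate 1. The leading 5 genes held 18.2% and 25.7% in morpholino replicates 2 and 3 and 17.4% to 21.4% in the controls. At a minimum of 100 counts in each other library the shares were 7 of 38 (18.4%) for these genes, 425 of 4585 (9.27%) for Ensembl genes and 0 of 69 for cytosolic ribosomal protein genes. At 20 counts they were 11 of 61 (18%), 1782 of 7851 (22.7%) and 1 of 74 (1.35%). Beside Ensembl genes, the share of these genes at 0 was thus lower or higher depending on the minimum, and the difference was not tested. The cytosolic ribosomal protein genes are not a comparison at a like level. Their median was 934 CPM over those tested, beside 28 CPM for the mitochondrial set. All rows tested are not at a like level either, with a median of 12.1 CPM. The part of level in the shares and median differences of morpholino replicate 1 was not tested.

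Morpholino replicate 3 departed in another way. None of the 65 genes was more than 2-fold higher there than the median of the other 5 libraries and 20 were over 2-fold lower. Over all 16637 rows tested, 3967 were more than 2-fold higher there and 3031 more than 2-fold lower. The median log2 difference of these genes was -0.67 beside 0.11 over all rows. Morpholino replicate 2 showed 7 of the 65 genes higher and none lower, beside 3191 higher and 1950 lower over all rows. Its median was 0.28 beside 0.17 over all rows. The controls had medians of -0.13, 0.13 and 0.25 in replicates 1 to 3, beside 0.07, 0.14 and 0 over all rows. Among the low genes in morpholino replicate 3 was mrpl52, a mitochondria-specific protein gene, with 15.3, 8.75 and 0.572 CPM in the morpholino libraries and 19.9, 7.97 and 13.1 CPM in the controls. It was chosen after its values were seen. This library held the highest neutrophil marker sum and the lowest red cell and cytosolic ribosomal protein sums, and their part in the lower levels was not tested.

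**Figure D5:**
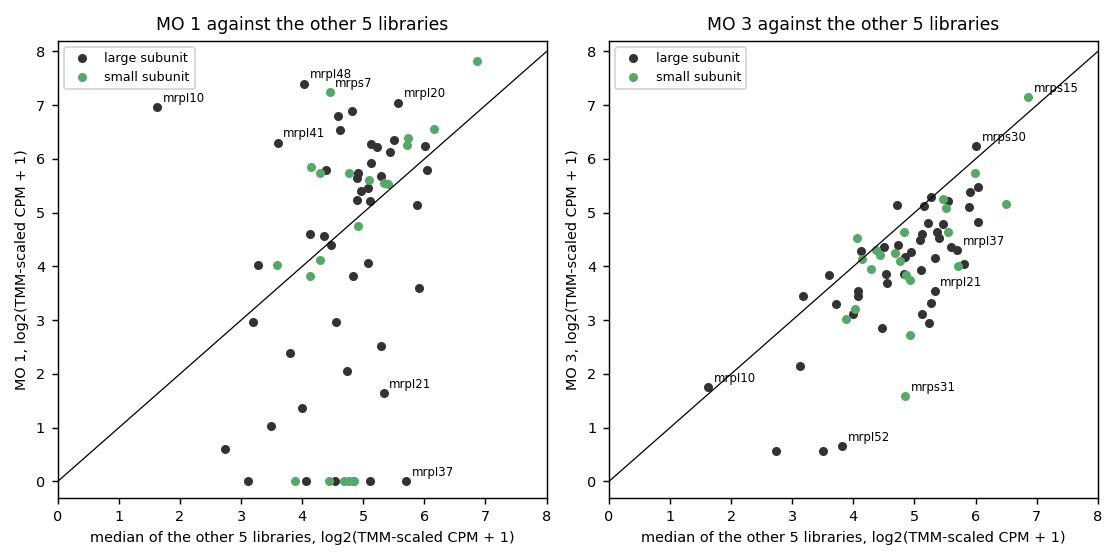
Log2(TMM-scaled CPM + 1) of the tested genes in znf711 morpholino (MO) replicates 1 and 3 (vertical axes) against their median in the other 5 libraries (horizontal axes), with the line of equality and large-subunit genes in black and small-subunit genes in green. Points of MO 1 scatter to both sides, 11 of them at 0, while those of MO 3 lie mostly under the line.

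The order of the 65 genes by level was alike in the other 5 libraries and not in morpholino replicate 1. Spearman correlations across these genes, which are not independent replicates and share each library's depth and scaling, ranged from 0.667 to 0.825 among the other 5 libraries. Between morpholino replicate 1 and the others they ranged from 0.313 to 0.44. The median SD of log2(CPM + 1) over these genes was 1.05 in the morpholino group and 0.61 in the controls, and it was 0.64 between morpholino replicates 2 and 3. Other rows at a like level, between 12.7 and 53.7 CPM, had median SDs of 1.25 in the morpholino group and 0.68 in the controls, and 0.47 between morpholino replicates 2 and 3. The mitochondrial ribosomal protein genes thus had the lower median SD in both groups and the higher one between those 2 libraries.

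The genes are scattered over 22 chromosomes of GRCz11, with at most 7 on 1 of them, chromosome 19. For 25 of the 74 genes (33.8%) the start of a gene on the other strand lay within 1000 bp upstream, so that both are transcribed away from a shared stretch. The same held for 5.63% of all Ensembl genes and 8.52% of the tested ones. It held for 25% of the other mitochondrial translation genes and 15.2% of the cytosolic ribosomal protein genes. These shares describe the annotation and were not tested. The distances ran from 29 bp, between mrpl34 and trnau1apb, to 878 bp, between mrps18b and ppp1r10. One such pair joins a gene of each subunit, mrps11 and mrpl46 on chromosome 7, whose starts are 221 bp apart. Their log2 fold changes were 0.21 ± 0.74 and 0.23 ± 1.32. The gene mrps11 had 48, 45.8 and 23.9 CPM in the morpholino libraries and 18, 50.4 and 33 CPM in the controls. Its partner mrpl46 had 4.22, 20.5 and 13.4 CPM in the morpholino libraries and 8.71, 12.9 and 11.2 CPM in the controls, so the partners differed most in morpholino replicate 1. These genes were chosen for their position after their values were seen.

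Some partners encode subunits of the respiratory chain. The complex II subunit gene sdhb lies 730 bp from mrpl20, the complex I subunit gene ndufs6 lies 243 bp from mrpl36, and the complex I subunit gene ndufb5 lies 419 bp from the unread mrpl47. The distance for mrpl20 is uncertain, since the files list its start, 10665, after its end, 9807. On the same strand, mrpl39 follows mrpl16 on chromosome 1 after 337 bp. Overlaps with genes of the other strand were also found, such as mrpl32 with psma2, mrpl11 with pfdn6, mrpl22 with gemin5 and mrpl43 with twnk, the mitochondrial DNA helicase gene. The use of strand in the authors' counting is unstated in the sources used here, so reads of such pairs cannot be assigned with certainty.

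Other genes of mitochondrial translation were examined beside these, of which 68 of 78 listed were found and 57 tested. None passed the edgeR test with Benjamini-Hochberg adjustment, with 17 estimates positive and 40 negative, beside 7365 positive and 9272 negative over all rows. The median log2 fold change of these 57 genes was -0.42, beside -0.12 over all rows. Without morpholino replicate 1 it was -0.19, beside -0.03 over all rows. Translation factors had 2 positive and 13 negative of 15, and 5 of 15 positive without morpholino replicate 1. Among them was tufm, the elongation factor that brings aminoacyl-tRNA. It had 69.6, 142 and 95.1 CPM in the morpholino libraries and 88, 146 and 125 CPM in the controls. Mitochondrial tRNA synthetases had 5 positive and 12 negative, and ribosome assembly genes 6 positive and 14 negative. Mitochondrial ribosomal proteins under other names had 4 positive and 1 negative of 5. The most abundant of them by CPM was dap3 of the small subunit. It had 195, 59.4 and 46 CPM in the morpholino libraries and 55.3, 62 and 87.5 CPM in the controls. For dap3, as for mrps7 and mrpl48, only morpholino replicate 1 was high. Without that library the median estimate of these 5 genes was -0.13. DESeq2 called fars2, the mitochondrial phenylalanyl-tRNA synthetase gene, which edgeR's filter left out. It is named for that call, after its values were seen, and had 29, 6 and 148 counts in the morpholino libraries and no count in any control.

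Import genes had 10 positive and 10 negative estimates with a median of 0.01, and genes of mitochondrial DNA expression 2 positive and 5 negative with a median of -0.56. Of this second group, the DNA packaging factor gene tfam had 7.91, 34 and 28 CPM in the morpholino libraries and 37.3, 30.3 and 73.6 CPM in the controls, with overlap. Transcription factor genes known to regulate mitochondrial or ribosomal genes had 7 positive and 7 negative estimates with a median of -0.08. The 13 protein-coding genes of the mitochondrial genome, which the mitochondrial ribosome translates, summed to 62016, 91012 and 47370 CPM in the morpholino libraries and 38749, 46383 and 189733 CPM in the controls. Control replicate 3 held far more of them than any other library. All 13 estimates were negative with a median of -0.68, and without control replicate 3 all 13 were positive with a median of 0.59. None passed the test in either fit.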

How the data were processed

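The authors deposited raw read counts per gene in 1 table per sample, per the file headers, with 59330 rows of which 26810 are unnamed gene models. Per the submitters' processing notes, the tools were HTSeq, HISAT2 2.0.5, Trimmomatic, DESeq2 1.16.1 and edgeR on build GRCz11, with no role or order given. Strand use, annotation release and the handling of multiply mapped reads are unstated in the sources used here.

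The test was that of edgeR 4.0.16 in R 4.3.3, a robust quasi-likelihood fit with the group as the only term. Rows were kept by filterByExpr with a minimum count of 10 and scaled by TMM. Benjamini-Hochberg adjustment covered every tested row, and the threshold was 0.05. Levels are TMM-scaled CPM with SD over 3 libraries, and sums are CPM of all counts without TMM scaling. Log2 fold changes carry an approximate standard error from the edgeR F statistic. Length-scaled levels divide counts by the listed gene length. A gene model on an alternate scaffold was matched within 5% of length, 10% of span and 2 Mb of position.

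The members and the gene lists were chosen with earlier results of these data known. Named genes comprised a fixed set by role and the 3 highest and 3 lowest of each subunit by length-scaled level. To these were added the 4 of smallest unadjusted p in each direction, the 3 steadiest and the 3 most variable. Those at 0 in a library, the target and the most abundant genes of the comparison lists completed the rule. Of those most abundant genes, only marcksl1b, tufm, dap3 and tfam are named here. Genes outside this rule, such as mrpl23, mrpl35, mrpl52 and mrps25, were picked with their values known. Alternatives comprised DESeq2 1.42.0, limma-voom 3.58.1 with and without library weights, other scalings and filters, leaving out libraries, and a replicate block. The scripts were tested on simulated data. Replicate numbers were not taken as pairs in the main fit, because the labels do not state that they mark pairs. Correlations between the deviations of the libraries did not settle this.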

Additional observations from a re-analysis of the deposited data

How the results depend on the processing

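None of the mitochondrial ribosomal protein genes was called under any of the 18 alternatives, although DESeq2 gave no adjusted p to mrpl10 and mrpl48. Their median log2 fold change ranged from -0.32 without morpholino replicate 2 to 0.18 without morpholino replicate 3, and the log2 ratio of their summed level from -0.12 to 0.47 on leaving out 1 library. Over all rows, edgeR called 0, and DESeq2 called 140, edgeR without a filter on low counts 2, and fits without 1 library 0 to 2 (2 without morpholino replicate 3 and 1 without control replicate 1). DESeq2 called 1 of the other mitochondrial translation genes. With the replicate number as a block no row was called and the median of the mitochondrial ribosomal protein genes was -0.08. Same-numbered libraries had correlations of their deviations of 0.12, 0.10 and 0.004, and different-numbered ones from -0.12 to 0.08. In both groups, replicates 1 and 2 had their highest correlation with the same number, and replicate 3 did not. These values do not settle whether the numbers mark pairs.

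Of 29 genes followed, 14 kept their sign in every one of the 18 alternatives that gave them a value and 15 changed it in 51 of the fits, none passing the threshold. On leaving out 1 library, the log2 fold change ranged from -1.29 to 4.94 for mrpl10, -0.21 to 2.59 for mrpl48, -0.66 to 1.69 for mrps7, -0.15 to 1.23 for mrpl20, -0.20 to 0.66 for mrpl3, -0.24 to 0.46 for mrpl4, -0.36 to 0.71 for mrpl33, -0.63 to 0.10 for mrpl13, -0.50 to 0.09 for mrpl2, -0.39 to 0.30 for mrpl44, -1.55 to 0.14 for mrps14, -0.87 to 0.52 for mrps18a, -0.29 to 0.02 for mrps18b, -0.13 to 0.97 for mrps18c and -0.42 to 0.25 for mrps27. Among the genes that kept their sign it ranged from -4.62 to -0.90 for mrps31, -1.93 to -0.85 for mrps24, -2.57 to -0.76 for mrpl37, -3.67 to -1.85 for mrpl58, -3.05 to -1.48 for mrpl21, -1.14 to -0.50 for mrpl12, -1.14 to -0.34 for mrpl11, -1.77 to -0.43 for mrpl36, -1.21 to -0.04 for mrps5, 0.29 to 0.94 for mrps15, 0.88 to 1.5 for mrps2, 0.40 to 1.07 for mrpl24, 0.04 to 0.55 for mrps34 and 0.22 to 0.32 for mrps30. Sign changes under other settings were as follows. Without both morpholino replicate 1 and control replicate 1, mrpl10 was at -1.62, mrpl48 at -0.49, mrps7 at -0.55, mrpl20 at -0.56, mrpl3 at -0.28 and mrps27 at 0.40. With library weights, mrpl10 was at -0.67, mrpl48 at -0.13, mrps7 at -0.30, mrpl20 at -0.16, mrpl3 at -0.33, mrps27 at 0.03 and mrpl33 at 0.06. With limma-voom, mrps7 was at -0.34, mrpl3 at -0.40, mrpl4 at -0.01 and mrpl33 at 0.04. With the replicate block, mrpl33 was at 0.18, mrpl3 at -0.08 and mrps18a at -0.59. The gene mrpl33 was at 0.03 with DESeq2 and with RLE scaling, and mrps18a at -0.01 with upper quartile scaling and with Ensembl genes only. With no scaling beyond the library total, mrpl33 was at 0.23, mrps18b at 0.02, mrpl13 at 0.05 and mrpl44 at 0.08. Beyond the smaller number of samples on leaving libraries out, the cause was not tested. The limit for a count of 0 was highest in morpholino replicate 1, at up to 1.84 CPM from counting error only.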
